A study of Eriocheir sinensis with 6 samples.

Results

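The predicted genes of chromosome CM024112.1 of the Chinese mitten crab, Eriocheir sinensis, were described in muscle on either side of the molt. A gene was a member when its identifier began with evm.TU.CM024112.1, and members were ordered by the number that ends the identifier. Each is written here as g and that number, so that g486 stands for evm.TU.CM024112.1.486. The table of expression values listed 304 such genes among 18729 genes in all. The chromosome was picked out because a stretch of its genes from g473 to g504 was higher in post-molt muscle, and a stretch from g13 to g17 was lower. Both stretches were thus chosen by the post-molt and pre-molt values of these same libraries, and their values stand here as a description without a test. The other members were read against all genes and against the other chromosomes.

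A crab grows only by shedding its hard shell. In pre-molt the new shell is laid down beneath the old one and limb muscle, best known from the claws, shrinks so that it can be pulled free. In post-molt the soft new shell hardens and muscle is rebuilt. Genes that lie beside each other on a chromosome can be copies of one another made by tandem duplication, and neighbours can share the regulatory DNA that turns them on.

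Post-molt and pre-molt muscle were each measured by RNA-seq in 3 libraries, and per the labels and the study's methods each library was made from the muscle of a single crab. The crabs were farm-raised juveniles, weighing 8.41 ± 1.47 g on average per the labels, kept at 20 °C under natural light, with no treatment named. Beyond the stage, the labels give no difference between the groups. Post-molt libraries held 4168778 to 5117237 recovered fragments, pre-molt libraries 5810158 to 6768426. Values were FPKM, fragments scaled to gene length and to a library size. These were whole-tissue libraries, in which fewer cells of a type and less RNA per cell cannot be told apart. No identifier matched a gene name (0 matched in the reference table), so no member has a known role here and the tissue label could not be checked by marker genes.

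Of the 304 listed members, 288 had a mean of at least 0.5 FPKM over the 6 libraries and were tested. The other 16 reached no more than 2.62 FPKM in any library, and their stages did not overlap for 3 of them. Over all tested genes the stages did not overlap in 26.7 percent. No such share was taken over untested genes, so nothing is read from the 3. Genes were called with limma on log2(FPKM + 1) at an adjusted p of at most 0.05 and an absolute log2 fold change of at least 1, fitted and adjusted over all 17465 tested genes. A positive log2 fold change means higher in post-molt. Adding 1 to the FPKM shrinks it where expression is low. It is a difference between means of logs, so where some libraries are at 0 it can still exceed the log2 ratio of mean FPKM. For gene g19 the 2 were −1.08 and −0.62. By this rule 49 of 288 members (17%) were called, 35 higher (12.2%) and 14 lower (4.86%) in post-molt. Over all tested genes 7.54 percent were called, 5.93 percent higher and 1.6 percent lower. The rule for choosing the chromosome used this contrast, so nothing is read from that excess.

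**Figure D1:**
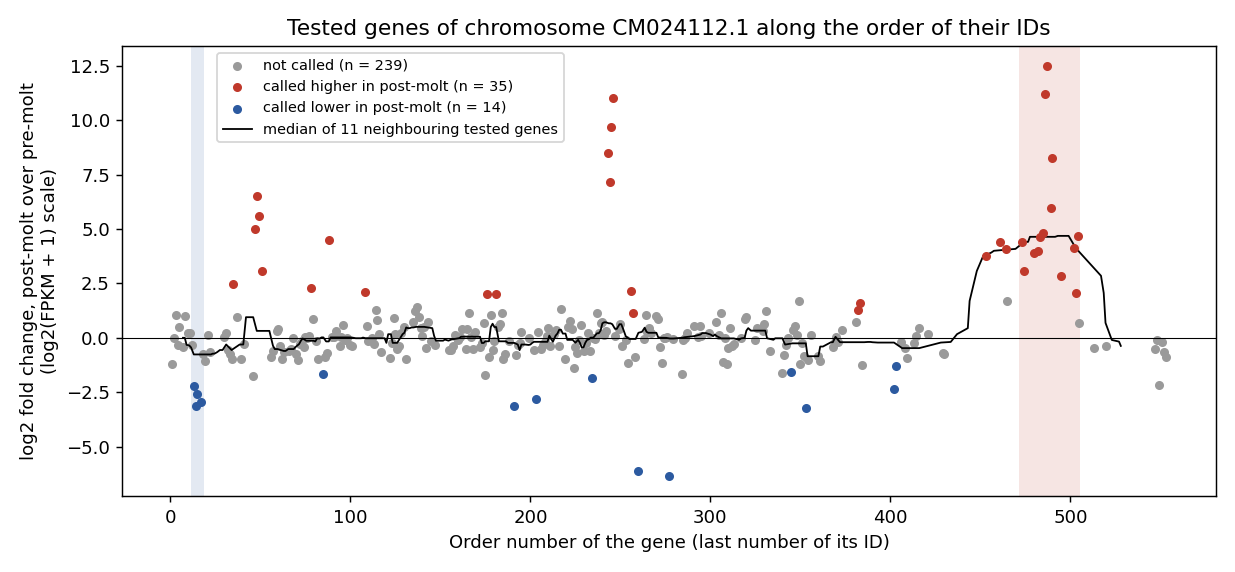
Each point is 1 of the 288 tested genes, placed by order number (horizontal, no unit) and by its log2 fold change between the stages on log2(FPKM + 1) values, positive where post-molt was higher (vertical); the line is the median of 11 neighbouring tested genes and the shaded bands are the stretches g13 to g17 and g473 to g504. Of the 35 genes called higher, 14 lie in the raised stretch and 4 each in tight groups near g48 and g245, with the rest elsewhere. Most of the 239 genes not called lie close to 0.

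The raised stretch held 14 listed genes in 32 order numbers, and all 14 were tested. Every one was higher in post-molt, with log2 fold changes of 2.06 to 12.48 and a median of 4.53. Summed over the stretch, the mean was 15894 FPKM in post-molt libraries and 5.20 FPKM in pre-molt libraries. The pre-molt libraries were near silent: 5 of the 14 genes had no fragment there, and another 6 had 1 to 3 fragments in all. Every gene in the list reached 1.00 FPKM in some library. Those 5 genes were therefore listed through post-molt alone, and genes silent in both stages are missing. That every listed gene of the stretch was higher is partly set by this. With the genes at 0 set to a floor of 3 fragments over the group (1 per library), the median ratio of mean FPKM was 134. Gene g503, at or under that floor in both stages, has no ratio and is left out of this median.

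Genes g486 and g487 made up 96.3% of the post-molt sum of the stretch. Gene g487 was at 11471, 9347 and 4186 FPKM in post-molt replicates 1, 2 and 3 and at 0, 0.639 and 0.475 FPKM in the pre-molt replicates. Its pre-molt level rested on 0, 1 and 1 fragments, and the ratio of the means was 22432 with a counting interval of 6210 to 185227 (95%, exact Poisson, counting error only). Its log2 fold change of 12.48 ranked 2 among all tested genes. Its neighbour g486 was at 9146, 8084 and 3663 FPKM in post-molt and at 0.734, 3.60 and 1.67 FPKM in pre-molt, a ratio of 3479 and a log2 fold change of 11.19 that ranked 12. Both genes were lowest in post-molt replicate 3, by 2.74-fold and 2.50-fold below the highest library. The ratio of g487 to g486 hardly moved between those libraries, at 1.25, 1.16 and 1.14.

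Gene g490 was the third most abundant of the stretch, and its post-molt libraries agreed more closely. It measured 349, 290 and 294 FPKM in post-molt and 0 in all 3 pre-molt libraries, at least 1048-fold higher. Gene g489 beside it measured 60.9, 54.8 and 71.3 FPKM in post-molt and 0 in each pre-molt library, at least 90.3-fold higher. Neither shared the low value of post-molt replicate 3.

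The remaining genes of the stretch were expressed at lower levels in post-molt. Gene g473, at its start, was at 68.4, 39.6 and 17.2 FPKM against 1.11, 0.584 and 0.579 FPKM, a ratio of 55.0. Gene g483 was at 13.5, 80.4 and 12.2 FPKM in post-molt, so that most of its signal came from replicate 2, and at 0 in pre-molt, at least 160-fold higher. Gene g480 was at 22.4, 18.5 and 6.57 FPKM against 0 in every pre-molt library, at least 71-fold higher. In all of them the lowest post-molt library lay above the highest pre-molt library.

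Few pre-molt fragments stood behind the ratios of the next genes. Gene g485 was at 42.6, 16.3 and 35.3 FPKM in post-molt and at 0, 0 and 0.187 FPKM in pre-molt, and gene g482 was at 13.5, 20.7 and 17.1 against 0, 0 and 0.384 FPKM. With 2 pre-molt fragments each, their ratios were 503 (interval 139 to 4157) and 134 (37.0 to 1103). Gene g504 was at 33.4, 37.5 and 19.2 against 0, 0 and 0.566 FPKM, and gene g502 at 34.1, 25.1 and 9.62 against 0.830, 0 and 0 FPKM. Each of these last had 1 pre-molt fragment, and gene g474, at 13.6, 8.35 and 5.12 against 0, 0 and 0.403 FPKM, did as well. Their ratios of 159, 82.8 and 67.2 therefore had wide counting intervals, of 28.6 to 6291, 14.9 to 3270 and 12.1 to 2654.

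Genes g495 and g503 were the least raised. Gene g495 was at 11.4, 12.3 and 22.5 FPKM in post-molt and at 0.701, 2.29 and 0.851 FPKM in pre-molt, a ratio of 12. Gene g503 had 1 recovered fragment in each post-molt library and none in pre-molt, at or under the floor in both stages, so no fold is given for it. It was not called by edgeR on the recovered fragments, and DESeq2 gave no adjusted p for it.

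**Figure D2:**
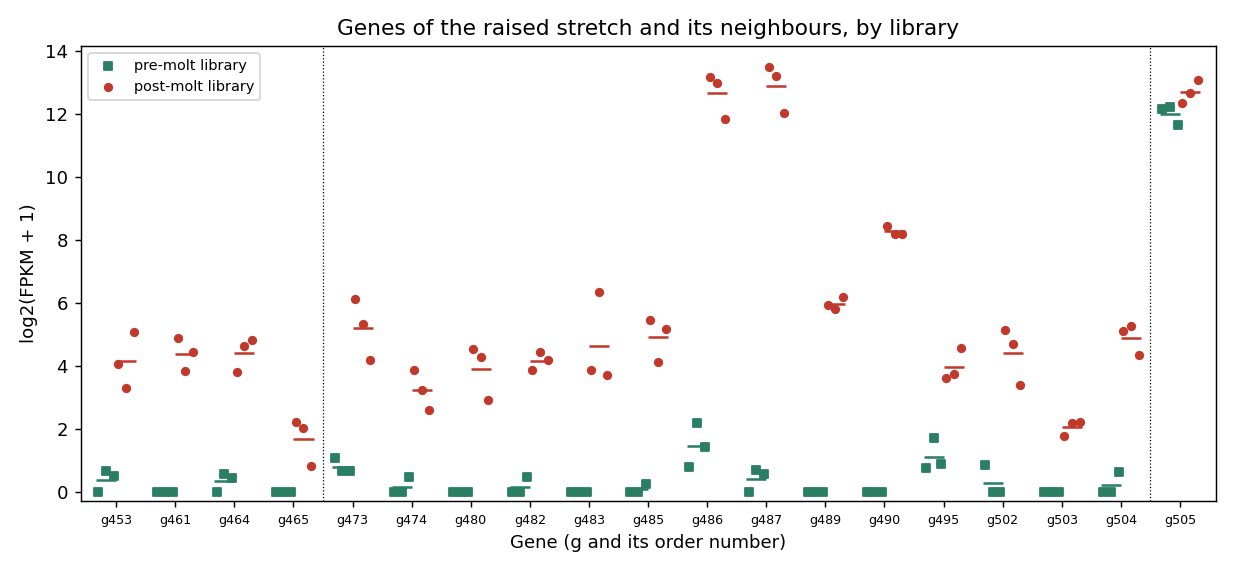
Each marker is 1 library (circles post-molt, squares pre-molt; 3 of each), drawn as log2(FPKM + 1) for the 14 genes of the raised stretch between the dotted lines and for its neighbours; short bars are means over 3 libraries. Post-molt and pre-molt libraries did not overlap in any of the 14 genes, while gene g505, just past the end, was abundant in both stages.

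The edges of the stretch differed. Just past its end, gene g505 was at 5219, 6470 and 8624 FPKM in post-molt and 4522, 4765 and 3239 FPKM in pre-molt, and it was not called (log2 fold change 0.69, limma adjusted p = 0.28). The next gene, g513, was at 0, 0 and 2.28 against 1.48, 0 and 2.42 FPKM, so that the stages overlapped. Of the 9 tested members from g505 on, 0 were called. As 7.54 percent of all tested genes were called, so few genes say little about the edge. That far end was thinly covered by the table, which listed 22.0% of the order numbers from g505 to g554 and 60.8% of those from g1 to g452.

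The near edge was less sharp. Gene g465, the closest tested gene before the stretch, was at 3.66, 3.08 and 0.788 FPKM against 0 in each pre-molt library, and it missed the threshold (log2 fold change 1.70, limma adjusted p = 0.052). Behind it, genes g453, g461 and g464 were called higher, at post-molt means of 19.1, 20.9 and 21.4 FPKM and log2 fold changes of 3.75, 4.39 and 4.09. With a pseudocount of 0.1, quantile normalization, no intensity trend or post-molt replicate 3 left out, gene g465 was called too, and the run spanned g453 to g504 with 18 genes. It was unbroken among listed genes only, since 34.6% of the 52 order numbers from g453 to g504 were listed. With TPM or a pseudocount of 5 gene g503 dropped out, and the run ended at g502 with 12 genes. With edgeR or DESeq2 it ran from g453 to g502 with 16 genes.

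The lowered stretch held 4 genes, g13, g14, g15 and g17. Their log2 fold changes had a median of −2.78. Gene g17 was the most expressed, at 3.80, 1.75 and 3.25 FPKM in post-molt and 29.8, 23.3 and 35.1 FPKM in pre-molt, 10.01-fold lower. Gene g15 was at 1.20, 1.77 and 0.604 against 15.03, 9.21 and 12.1 FPKM, 10.2-fold lower. Gene g13 was at 2.45, 2.41 and 1.23 against 13.7, 10.5 and 14.8 FPKM, 6.42-fold lower. In none of these genes did the stages overlap.

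Gene g14 rested on the fewest fragments. It was at 0, 0 and 1.79 FPKM in post-molt, from 1 fragment in all, and at 12.1, 8.55 and 14.8 FPKM in pre-molt, 19.8-fold lower with a counting interval of 3.55 to 780. Gene g13 had 3, 2 and 1 post-molt fragments, whereas gene g17, which is 7632 bases long, had 51, 16 and 29. The fall of gene g17 is therefore the best measured of the 4.

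On both sides of the lowered stretch the genes were not called. Genes g11 and g12 before it had log2 fold changes of 0.21 and −0.35, and genes g18 and g19 after it −0.76 and −1.08. Genes g18 and g19 had 5 and 4 post-molt fragments in all, and both were called lower under TPM scaling, where the run reached from g13 to g19. None of the 10 tested members from g1 to g12 was called by limma, which is little to go on where 7.54 percent of all tested genes were called.

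Of the 270 tested members outside both stretches, 31 (11.5%) were called. Of these 21 were higher (7.78%, against 5.93 percent of all genes) and 10 lower (3.70%, against 1.6 percent). All 31 lay between the stretches, among 251 tested genes from g18 to g472. Their log2 fold changes centred where all genes did, with a median of −0.02 against −0.09. Post-molt and pre-molt libraries did not overlap in 33.0% of these 270 genes, and in 26.7 percent of all tested genes. Post-molt was above in 48 and pre-molt in 41 of them, where the shares over all tested genes were 14.2 percent and 12.5 percent.

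The share called rose with expression, both here and in all genes. Under a mean of 1 FPKM, 1 of 32 members outside the stretches was called (3.13%), against 1.08% of all genes. From 1 to 10 FPKM, 8 of 140 members outside the stretches were called (5.71%), against 5.02% of all genes at that level. From 10 to 100 FPKM the shares were 15.1% and 13.04%. Above 100 FPKM 11 of 25 such members were called, 7 higher and 4 lower (44.0%), against 26.8% of 1030 genes. In percentage points the gap was widest in this last group. Levels were means over all 6 libraries, so a gene could enter a group through the stage in which it was high. Genes g243, g245 and g246, for example, averaged 0.609, 1.20 and 2.93 FPKM in pre-molt and belong to this last group. They are neighbours in the order, as are g47 to g49, which belong to it too. Nothing is therefore read from the gap or from the rise with expression.

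Among the 71 chromosomes with at least 50 tested genes, CM024112.1 ranked 1 by the share called and by the shares called higher and lower. The other 70 ranged from 0.990% to 13.99% called, with a median of 7.25%. Without its stretches the chromosome would stand at 11.5%, with 7 other chromosomes, left whole, above it. Its share of lower genes outside the stretches was 3.70%, where the highest on another chromosome was 3.83% and the median 1.505%. By the highest median log2 fold change over 11 neighbouring tested genes, CM024112.1 ranked 4, at 4.69. Higher medians were reached on CM024108.1 (8.74), CM024135.1 (8.35) and CM024166.1 (6.18), so a raised stretch was not particular to this chromosome. By the lowest such median, −0.85, it ranked 20. These shares and medians come from the contrast that picked the chromosome and carry no test.

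**Figure D3:**
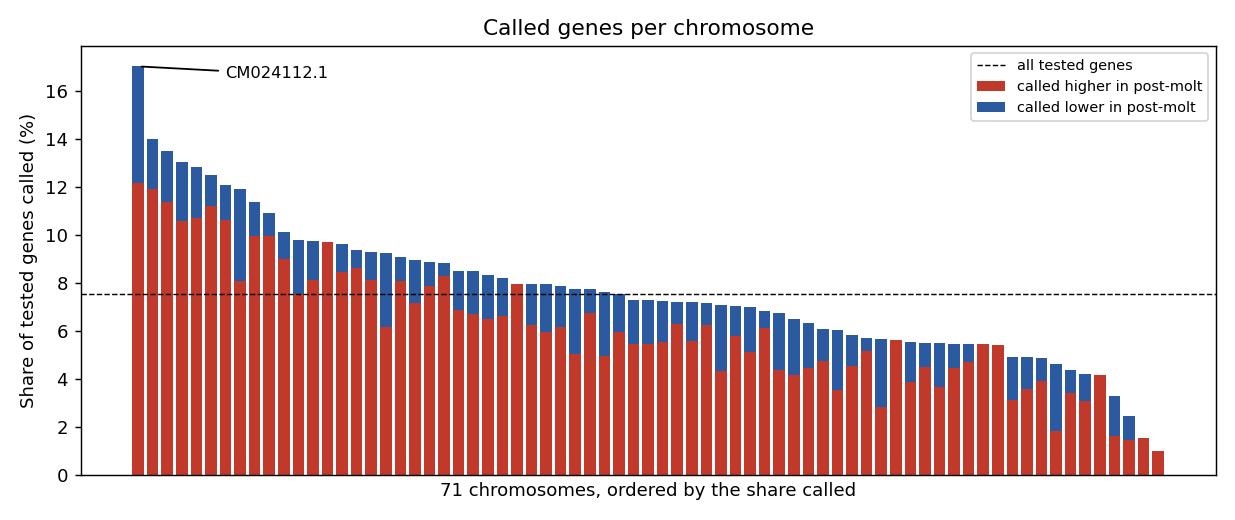
Each bar is 1 of the 71 chromosomes with at least 50 tested genes, and its height is the share of tested genes called by limma (percent), split into higher and lower in post-molt; the dashed line is the share over all tested genes, 7.54 percent. CM024112.1 stands first at 17%, followed by a chromosome at 13.99%.

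Between the stretches the genes called higher also lay side by side. Genes g47, g48, g49 and g51, neighbours among the listed genes, summed to a mean of 9379 FPKM in post-molt libraries against 239 FPKM in pre-molt. Gene g48 was at 3080, 2550 and 2508 FPKM in post-molt and 11.6, 36.0 and 53.4 FPKM in pre-molt, 80.5-fold higher (log2 fold change 6.52, SE 0.50, limma adjusted p = 4.9e-05). Gene g47 was at 7347, 6220 and 3550 against 81.7, 240 and 237 FPKM, 30.7-fold higher (5.02, SE 0.48, limma adjusted p = 0.00021). Gene g49 was at 991, 852 and 1013 against 24.8, 13.4 and 18.7 FPKM, 50.2-fold higher (5.61, SE 0.29, limma adjusted p = 4.5e-06). Unlike the raised stretch, 3 genes of this group were already clearly expressed in pre-molt. Gene g46, on their border, ran the other way in its means, at 47.1, 45.8 and 50.9 FPKM in post-molt against 57.9, 480 and 154 FPKM in pre-molt, but it was not called (log2 fold change −1.74, limma adjusted p = 0.17). It was called lower with edgeR (−2.31, adjusted p = 0.00083), DESeq2 (−2.31, adjusted p = 0.00062) and TPM scaling (−3.01, limma adjusted p = 0.0063). Dropping pre-molt replicate 1 also gave a call (−2.48, limma adjusted p = 0.031).

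Genes g243 to g246 formed a second group, from 4.74 FPKM summed in pre-molt to 10811 FPKM in post-molt. Gene g246 was at 9924, 10443 and 3814 FPKM in post-molt and 1.498, 1.84 and 5.46 FPKM in pre-molt, 2750-fold higher (log2 fold change 11.003, SE 0.50, limma adjusted p = 2.0e-06), which ranked 14 among all tested genes. Gene g245 was at 2199, 2845 and 929 against 1.28, 0.783 and 1.55 FPKM, 1653-fold higher (9.69, SE 0.42, limma adjusted p = 1.7e-06). Gene g243 was at 616, 822 and 356 against 1.19, 0.365 and 0.271 FPKM, 982-fold higher (8.50, limma adjusted p = 2.0e-06). Gene g244 was at 126, 269 and 89.0 FPKM against 0 in each pre-molt library, at least 361-fold higher (limma adjusted p = 8.5e-06). All 4 genes were lowest in post-molt replicate 3.

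The borders of this group were abrupt. Gene g242 was at 2.77, 0 and 1.67 FPKM in post-molt and 0.648, 0.530 and 0.984 FPKM in pre-molt, and gene g247 at 3.92, 3.33 and 2.20 against 2.83, 2.73 and 3.12 FPKM. Neither was called, with log2 fold changes of 0.34 and 0.07 (limma adjusted p = 0.76 and 0.93), and in both the stages overlapped. Both this group and the one from g47 to g51 had the same first and last gene under every alternative setting.

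Gene g88 was the eighth of the largest rises outside the stretches and stood alone, at 1329, 1134 and 464 FPKM against 26.1, 47.3 and 45.6 FPKM, 24.6-fold higher (log2 fold change 4.50, SE 0.44, limma adjusted p = 0.00025). The other called genes moved less. Pairs of neighbours called in 1 direction were g256 with g257 and g382 with g383, both higher, and g402 with g403, both lower. These pairs were less firm, since leaving out 1 library ended several of their calls. The call of g257 ended without any library but post-molt replicate 3 (limma adjusted p = 0.075 to 0.18), as did that of g382 (0.057 to 0.10). The call of g383 ended without post-molt replicates 1 or 3 or pre-molt replicates 1 or 2 (limma adjusted p = 0.059 to 0.14), and that of g403 without any of the 6 libraries (0.068 to 0.18). Under TPM scaling g256, g257, g382 and g383 were all not called. The 13 called members outside the stretches that are not named by size comprised 11 higher and 2 lower genes. They included g453 and g461 before the raised stretch and g51 beside g49, which was at 7.17, 16.6 and 3.08 FPKM against 0 in each pre-molt library.

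The falls were led by single genes scattered along the chromosome. Gene g203 was the most abundant gene of the whole table in pre-molt muscle, and ranked 87 in post-molt. It was at 9456, 13870 and 9295 FPKM in post-molt and 87545, 77671 and 64380 FPKM in pre-molt, 7.04-fold lower (log2 fold change −2.83, SE 0.35, limma adjusted p = 0.0011). Gene g191, nearby in the order, was at 188, 348 and 119 against 1661, 2142 and 1568 FPKM, 8.19-fold lower (−3.15, SE 0.40, limma adjusted p = 0.0013). Gene g202, directly before g203, was at 3.29, 2.43 and 0 against 1.93, 3.15 and 2.93 FPKM and was not called. The abundant gene thus had a neighbour that was almost silent in both stages.

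By log2 fold change the largest falls were in g277 and g260, both short gene models of 261 and 264 bases. Gene g277 was at 17.4, 35.3 and 6.56 FPKM in post-molt and 1268, 1605 and 1319 FPKM in pre-molt, 70.8-fold lower (log2 fold change −6.34, SE 0.51, limma adjusted p = 7.3e-05). Gene g260 was at 0, 15.9 and 3.24 against 149, 328 and 495 FPKM, 50.95-fold lower (−6.13, SE 0.91, limma adjusted p = 0.0033), with 0, 5 and 1 post-molt fragments. In both, post-molt replicate 2 was the highest of its stage. Gene g279, close to g277 in the order, was at 16.5, 4.85 and 29.8 against 16.1, 12.6 and 13.5 FPKM, so that its stages overlapped.

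The other named falls were in genes of low expression. Gene g402 was at 0.727, 2.14 and 0.548 against 8.80, 9.22 and 9.69 FPKM, 8.11-fold lower (log2 fold change −2.33, limma adjusted p = 0.0045). Gene g353 was at 0 in each post-molt library and at 10.9, 11.9 and 4.41 FPKM in pre-molt, from 9, 8 and 4 fragments, at least 2.20-fold lower. Its limma call (adjusted p = 0.0013, 0.00025 to 0.070 over its alternatives) was lost with edgeR (adjusted p = 0.070), and DESeq2 gave no adjusted p for it. Gene g234 was at 9.20, 5.42 and 2.77 against 17.9, 29.9 and 18.3 FPKM, and gene g85 at 2.29, 6.59 and 4.27 against 17.9, 14.8 and 12.8 FPKM. They were 3.81-fold and 3.46-fold lower (limma adjusted p = 0.032 and 0.030), and both calls ended when any pre-molt library was left out. Without pre-molt replicates 1, 2 and 3 in turn, the limma adjusted p was 0.092, 0.12 and 0.095 for g234 and 0.15, 0.098 and 0.090 for g85. The call of g85 also ended without post-molt replicate 1 (limma adjusted p = 0.070) and with the replicate number as a block (limma adjusted p = 0.067), and that of g234 without post-molt replicate 2 (limma adjusted p = 0.071) and with DESeq2 (adjusted p = 0.12). Over all alternatives the adjusted p ran from 0.0013 to 0.12 for g234 and from 0.00015 to 0.15 for g85.

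**Figure D4:**
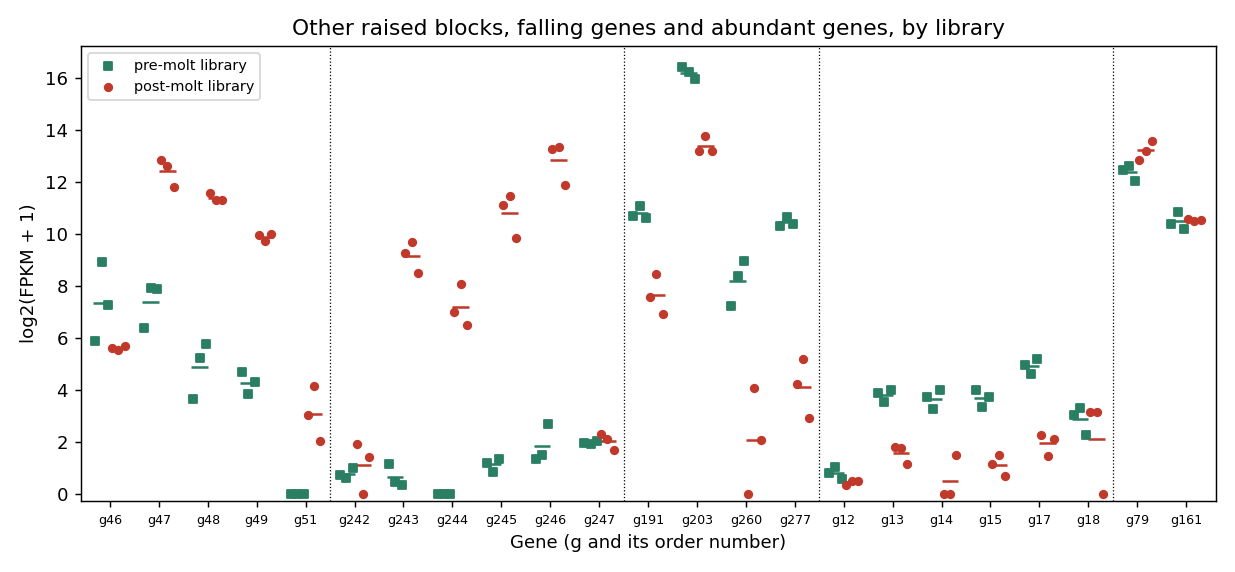
Each marker is 1 library (circles post-molt, squares pre-molt; 3 of each) on a log2(FPKM + 1) scale, with short bars for means over 3 libraries; dotted lines separate the groups g46 to g51 and g242 to g247, 4 falling genes, the lowered stretch with its neighbours, and 2 abundant genes that were not called. Genes g243 to g246 rose from near 0 between flat neighbours, and gene g203 stood highest of all, at 64380 to 87545 FPKM in pre-molt.

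Several abundant members were not called. Gene g79 was at 7380, 9451 and 12338 FPKM in post-molt and 5594, 6200 and 4242 FPKM in pre-molt (log2 fold change 0.85, limma adjusted p = 0.19). Its ratio to gene g505, which lies at the other end of the order, varied little. Gene g505 divided by g79 lay between 0.685 and 0.707 in post-molt libraries and between 0.764 and 0.808 in pre-molt libraries. Every post-molt ratio was thus below every pre-molt ratio. How often other pairs of genes separate the stages in this way was not counted, so nothing is read from it. Gene g161 was at 1518, 1462 and 1481 against 1346, 1849 and 1171 FPKM (0.06, limma adjusted p = 0.94). Its highest and lowest post-molt libraries differed by 1.04-fold. Over all 239 members that were not called, log2 fold changes ran from −2.16 to 1.70, 55.2% lay within 0.5 of 0, and 40 had an unadjusted p under 0.05.

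The study drew up lists of genes that changed both in accessible chromatin and in RNA. Those lists set neighbouring stages of the molt cycle against each other, and none of them sets post-molt against pre-molt, so the calls given here answer another comparison. In all 13 members were listed, of which 12 were tested. Pre-molt and post-molt libraries took part in making the lists, so a direction given for a listed gene is no independent evidence. Gene g108 was higher, at 81.4, 111 and 94.2 FPKM against 20.0, 20.7 and 22.3 FPKM, 4.54-fold (log2 fold change 2.12, SE 0.26, limma adjusted p = 0.0011). Its call was lost under TPM scaling (0.81, limma adjusted p = 0.057). Genes g495 and g502 lie in the raised stretch. Gene g191 was the only one called lower. The other 8 tested were not called, namely g90, g109, g202, g221, g237, g279, g285 and g299. Gene g237 came closest, at 7.66, 6.64 and 9.91 against 2.92, 2.84 and 3.33 FPKM (1.16, limma adjusted p = 0.056). It was called higher with edgeR (1.38, adjusted p = 0.0061), with DESeq2 (1.39, adjusted p = 0.0020) and with a mean of at least 1 FPKM required (limma adjusted p = 0.047), and its adjusted p ran from 0.0020 to 0.90 over all alternatives. Gene g285 was at 47.5, 47.8 and 45.3 against 51.4, 47.7 and 53.4 FPKM, nearly level on the deposited scale, but it was called lower under TPM scaling (−1.38, limma adjusted p = 0.010).

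The chromosome's share of each library was lower in post-molt, mainly through 1 gene. Of all fragments it held 1.77% ± 0.380 in post-molt libraries and 7.42% ± 0.481 in pre-molt libraries (SD, n = 3). Gene g203 alone held 0.382% ± 0.0760 and 6.27% ± 0.541. Without it the chromosome held 1.39% ± 0.337 in post-molt and 1.15% ± 0.0600 in pre-molt, and the libraries of the stages overlapped. The raised stretch took 0.255% ± 0.127 of post-molt and 0.000289% ± 8.4e-05 of pre-molt fragments. Genes g47 to g49 took 0.233% and 0.0121%, and genes g243 to g246 took 0.189% and 0.000220%. The 282 remaining genes held 0.716% ± 0.0669 in post-molt and 1.14% ± 0.0566 in pre-molt. They are what was left once g203 and the raised groups were taken out. Shares are set against the total of a library, whereas deposited FPKM had unequal sums, so folds of shares and of FPKM differ. No fall of these 282 genes is read from their share. Exact testing of 3 against 3 libraries cannot reach a two-sided p below 0.1, and these shares were taken from the contrast that chose the stretches, so none was tested.

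**Figure D5:**
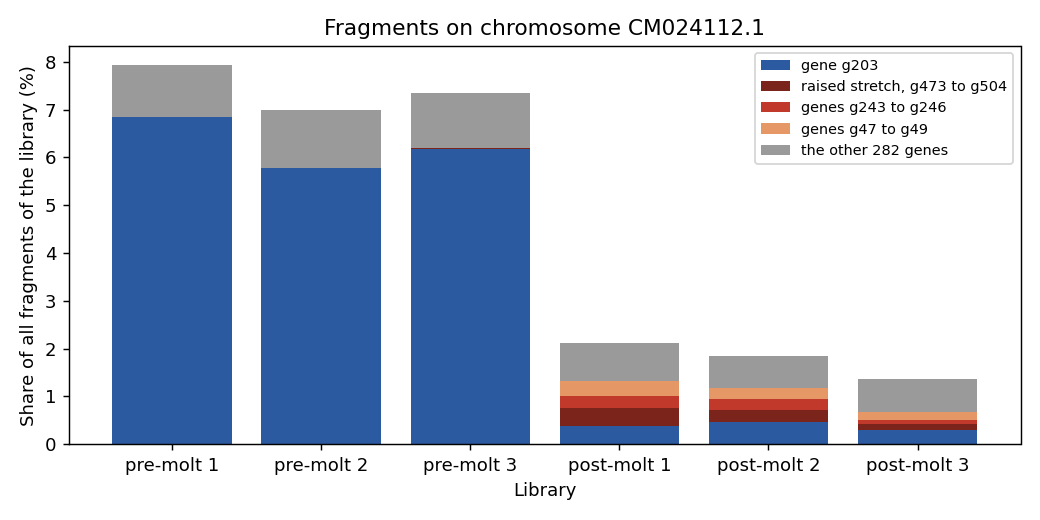
Each bar is 1 library and its height is the share of that library's fragments that fell on the chromosome (percent), split into gene g203, the 3 raised groups and the other 282 genes. Gene g203 fills most of each pre-molt bar, with 5.77% to 6.84% of all fragments, and 0.306% to 0.458% of each post-molt library.

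Post-molt replicate 3 was the lowest library for 8 of the 14 genes of the raised stretch, for 4 of 4 genes from g243 to g246, for 49.2% of all genes called higher and for 34.2% of all tested genes. Deviations from the stage mean over the 6 libraries had a mean pairwise Pearson correlation of 0.05 within the raised stretch and of 0.68 within g243 to g246, over 6 points that share libraries and depth. It was −0.17 for g47 to g49 and 0.03 in the lowered stretch. For the 10 genes called lower outside the stretches it was 0.39, and for 14 other genes called higher there −0.05. No such value was taken over all genes. In the raised stretch the 5 genes without a pre-molt fragment have pre-molt deviations of 0. Left out, post-molt replicate 3 moved the median log2 fold change of the raised stretch from 4.53 to 4.81. Its part in the spread was not tested.

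Gene lengths differed between the raised groups. Median lengths were 692 bases in the raised stretch, 610 bases for g47 to g51 and 632 bases for g243 to g246, but 2769 bases for the pair g256 and g257 and 1905 bases for g382 and g383. Over the 35 members called higher the median was 781 bases, and no test of length was run. The lowered stretch had a median of 1056 bases, members outside the stretches 1177 bases and all tested genes 1212 bases. Gene lengths of 58 members were read from the deposited comparison table, and the others were recovered from the steps of the FPKM values. The files used here give no sequence or strand for members, so whether neighbouring members are copies that share reads was not tested, and the split of signal between neighbours such as g486 and g487 is uncertain to that extent.

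The level of the libraries was set by the authors' scaling. Deposited FPKM summed to 2.77e+06 to 3.75e+06 in post-molt libraries and 1.12e+06 to 1.46e+06 in pre-molt. Rescaling every library to a common sum (TPM) shifted the log2 fold changes of all tested genes, at the median, from −0.09 to −0.78. It called 138 members, 27 higher and 111 lower, where 37.2 percent of all genes were called, 3.44 percent higher and 33.7 percent lower. Of the 35 genes called higher 27 kept the call and of the 14 called lower 14 did. Gene g257 turned its sign, from 1.13 to −0.12, and was the only called member to do so, whereas genes g79, g161 and g505, which were not called, turned to −0.48, −1.27 and −0.64. With quantile normalization these 3 turned as well, to −0.46, −1.35 and −0.61. Gene g161 was called lower in both settings (limma adjusted p = 0.0075 with TPM and 0.0022 with quantile normalization). The medians of the stretches under TPM were 3.02 and −3.001. With edgeR on the recovered fragments 60 members were called, against 11.3 percent of all genes, and with DESeq2 57, against 9.55 percent.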

How the data were processed

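RNA-seq of crab muscle was analysed for 3 post-molt and 3 pre-molt libraries, grouped by sample title. Per the methods and the processing notes, the authors aligned paired reads with HISAT2 2.0.5 and counted fragments with featureCounts 1.5.0-p3. The methods name the reference genome by its database project alone, and an assembly version and the use of strand are not given in the sources used here. FPKM were deposited for 18729 genes, each reaching 1.00 FPKM or more somewhere. They also deposited a comparison table of 1684 genes with a normalized signal per library (counts divided by a size factor), gene lengths, and their own fold changes and p-values, which were not used. That table served for lengths, for gene positions by chromosome and to match libraries. The FPKM columns carry another tissue prefix than the labels. They equalled the muscle columns of the same stage letter and number, apart from gene length and 1 factor for each library. Per-sample columns left unused numbered 0.

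Fragments were recovered from FPKM: 100% of values came out whole (tolerance 0.001), and 98.7% of the known lengths were recovered exactly. Known lengths were those of the comparison table, so this share does not cover genes outside it. For those genes the shortest length that made all values whole was taken. Fragment numbers with a common factor, as in genes of few fragments, could therefore come out too low. At the median length of 1150 bases, 1 fragment stood for 0.494 to 0.744 FPKM in post-molt libraries but for 0.176 to 0.236 FPKM in pre-molt libraries, which makes low post-molt values the coarser. The test was limma 3.58.1 (R 4.3.3) with an intensity trend on log2(FPKM + 1). It ran over the 17465 genes whose mean reached 0.5 FPKM, with Benjamini-Hochberg adjustment over all of them. The alternatives were edgeR 4.0.16 and DESeq2 1.42.0 on recovered fragments, other pseudocounts (0.1 and 5), filters, TPM and quantile scaling, no trend, a replicate block, and each library left out. Replicate numbers name different crabs. The main fit therefore paired no libraries by number. Deviations of same-numbered libraries from their stage means correlated at −0.0299, −0.0335 and −0.051. Differently numbered libraries were not set beside them, so a batch shared by number was not tested. Scripts were tested on simulated data.

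Members named are those in the stretches with 2 tested neighbours at each end, the 8 largest called rises and 8 largest called falls outside, the 6 with the highest mean FPKM outside, and the study's listed genes. Genes g46, g51, g242, g247, g256, g257, g382, g383, g403, g453 and g461 were named after their values were seen. Members and lists were chosen with earlier results of these data known.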

Additional observations from a re-analysis of the deposited data

How the results depend on the processing

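With other pseudocounts, other filters, no intensity trend, quantile normalization, edgeR or DESeq2, 46 to 60 members were called, against 49. EdgeR called 60 and DESeq2 57, where they called 11.3 and 9.55 percent of all genes, and 46 and 45 of these were among the 49. The replicate block called 44 members, all among the 49, with 32 higher and 12 lower. TPM called 138 members, 111 of them lower, and 121 outside the stretches, where the median log2 fold change was −0.81. Quantile normalization gave a median of −0.19 outside and −2.91 in the lowered stretch. The medians of the raised and the lowered stretch were 7.20 and −3.33 with a pseudocount of 0.1, 2.65 and −1.52 with a pseudocount of 5, 3.02 and −3.001 with TPM, 7.47 and −3.33 with edgeR, and 7.80 and −3.34 with DESeq2. Leaving out 1 library gave 42 to 49 called members, medians of 4.16 to 4.81 in the raised and −2.94 to −2.69 in the lowered stretch. As a share of summed FPKM, the chromosome held 2.23% in post-molt. Among named genes, 916 values under alternatives kept their direction and their side of the threshold, 48 lost a call and 17 gained one. Another 29 turned their sign in genes that were called in neither setting, g79 and g505 under TPM among them. In 3 values the sign turned in a gene called in one of the settings. Gene g257, called higher, was at −0.12 under TPM, and gene g161, not called at 0.06, was called lower at −1.27 under TPM and −1.35 under quantile normalization. Post-molt libraries, in which 1 fragment is worth more FPKM, limit the low genes. The causes of these changes were not tested.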

Other observations

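The deposited comparison table also placed 7 gene models outside the predicted set on this chromosome. That table holds only genes that passed the authors' own test, so these models are a selected few, and they have no order number among the members. By limma 6 of them were called higher in post-molt, 0 lower and 1 was not called. The most abundant was at 26115, 20286 and 6320 FPKM in post-molt and 6.90, 10.4 and 11.6 FPKM in pre-molt, with a log2 fold change of 10.49. The next was at 2148, 2177 and 1407 FPKM against 0.541, 0.486 and 0.821 FPKM, with a log2 fold change of 10.19. The former alone exceeded the post-molt sum of the raised stretch, with a mean of 17574 against 15894 FPKM, and like genes g486, g487 and g246 it was lowest in post-molt replicate 3. Another was at 29.2, 43.0 and 32.1 FPKM in post-molt and at 0 in each pre-molt library. The model that was not called was at 26.9, 21.8 and 12.4 FPKM against 42.1, 43.5 and 40.5 FPKM (log2 fold change −1.07), and its stages did not overlap.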
